A study of Mus musculus with 6 samples.

Results

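The genes described here handle zinc, iron and magnesium in mouse hepatic stellate cells in primary culture, liver pericytes that store vitamin A, after a short pulse of forskolin. They are every row of the deposited exon count table whose symbol belongs to the solute carrier families Slc11, Slc30, Slc39, Slc40 or Slc41, together with the metallothionein genes Mt1 and Mt2, the ferritin genes Fth1 and Ftl1 and the transferrin receptor gene Tfrc. This rule, which uses symbols and no measured value, found 35 genes among 24940 rows. Stellate cells of wild-type female C57BL/6JBomTac mice were treated 2 days after isolation. The Fsk group (3 libraries, A to C) received 5 µM forskolin, which switches on adenylyl cyclase, the enzyme that makes cyclic AMP. The Ctrl group (3 libraries, A to C) received an equal volume of vehicle, dimethyl sulfoxide (DMSO, 1:1000). New medium was given at 3 h and RNA was taken 21 h later, at 24 h from the start of treatment. The age of the mice, and whether the libraries came from separate animals or cultures, are not given in the labels, so the spread behind each p-value is that of these libraries and may be technical.

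Zinc and iron cannot be made or destroyed by a cell, so their level in the cytosol is set by transporters and by storage proteins. Proteins of the Slc39 family (ZIP) move zinc into the cytosol from outside or organelles, and most of the Slc30 family (ZnT) move it out. Metallothioneins bind zinc and copper through their many cysteines and are switched on by the zinc-sensing transcription factor MTF1. Iron enters through the transferrin receptor and DMT1 (Slc11a2), is stored in ferritin and leaves through ferroportin (Slc40a1). Magnesium, a cofactor of ATP, is carried by the Slc41 family and several unrelated channels and transporters. Stellate cells are mainly studied for retinoid storage and, once activated, for the collagen matrix of liver fibrosis.

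Column totals ranged from 10890193 to 12954310 counts in Fsk libraries and from 13001358 to 15090262.5 in Ctrl libraries, so the Ctrl libraries were the deeper ones. All 12 stellate cell markers examined had counts. Their summed level in CPM, the usual library-scaled count, was 4330 to 4428 in Fsk libraries and 4538 to 4812 in Ctrl libraries. Of these markers 4 rose and 7 fell (edgeR adjusted p under 0.05), where 24.8% of all genes tested rose and 25.1% fell. Hgf was at 401 CPM in Fsk libraries and 198 CPM in Ctrl libraries, and Des at 182 and 323 CPM. The 19 macrophage markers summed to 51.1 to 57.0 CPM in Fsk libraries and 47.1 to 47.8 CPM in Ctrl libraries. The 12 hepatocyte markers summed to 6.11 to 7.33 CPM in Fsk libraries and 6.06 to 7.76 CPM in Ctrl libraries, with Fga, Fgb, Serpina1a and Cyp3a11 at 0 counts. The 12 markers of sinusoidal endothelium summed to 98.4 to 100.1 CPM in Fsk libraries and 212 to 224 CPM in Ctrl libraries. Most of this came from Flt4 (79.7 CPM in Fsk libraries and 195 CPM in Ctrl libraries). Of the 7 tested, 4 fell and 1, Stab2, rose (2.53 CPM in Fsk libraries and 0.955 CPM in Ctrl libraries). Pecam1 and Cdh5 averaged under 0.5 CPM in both groups. The 6 cholangiocyte markers summed to 392 to 428 CPM in Fsk libraries and 138 to 153 CPM in Ctrl libraries. Of these, Spp1, which activated stellate cells also express, rose to 372 CPM in Fsk libraries, against 72.5 CPM in Ctrl libraries, and Krt19 fell to 35.1 CPM in Fsk libraries, against 71.3 CPM in Ctrl libraries (edgeR adjusted p = 7.19e-16 and 4.76e-09). The 8 markers of mesothelium and portal fibroblasts summed to 24.3 to 33.3 CPM in Fsk libraries and 8.35 to 11.3 CPM in Ctrl libraries. Of the 4 tested, 2 rose and 0 fell. These 2 were Cd34 (19.6 CPM in Fsk libraries and 3.86 CPM in Ctrl libraries) and Thy1 (4.95 and 0.650 CPM). The lymphocyte markers stayed at or under 0.456 CPM in sum. The part of such cells in the values that follow was not tested.

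Across the 35 genes the picture was of moderate change: most zinc importers and both tested iron importers were lower after forskolin, and both metallothioneins, the ferritin heavy chain and the iron exporter were higher. A gene entered the test when its counts passed a minimum of 10 in enough libraries, and 27 of the 35 did. Of these 27, 6 were higher in Fsk libraries and 13 were lower (edgeR quasi-likelihood test, adjusted p under 0.05 over all 13357 genes tested), which is 70.4% of them. Over all genes tested the same rule called 49.9%, with 24.8% higher and 25.1% lower. The median log2 fold change of the 27 genes, Fsk over Ctrl, was -0.14, and that of all genes tested was 0.01. The median absolute log2 fold change was 0.26 for the 27 genes and 0.22 for all genes tested. The libraries of the groups did not overlap for 20 of the 27 genes (74.1%), against 57.3% of all genes tested. Only Slc40a1 rose and Slc39a4, Slc39a10, Slc39a8 and Slc41a3 fell by at least 1.5-fold, 5 of 27 genes, where 15.4% of all genes tested passed both rules (7.09% higher and 8.3% lower). Tested against a 1.5-fold change rather than no change, 0 of the 27 were higher and 1, Slc39a10, was lower. When library size, which differed between the groups, was added as a covariate, 3 were higher and 11 lower.

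**Figure D1:**
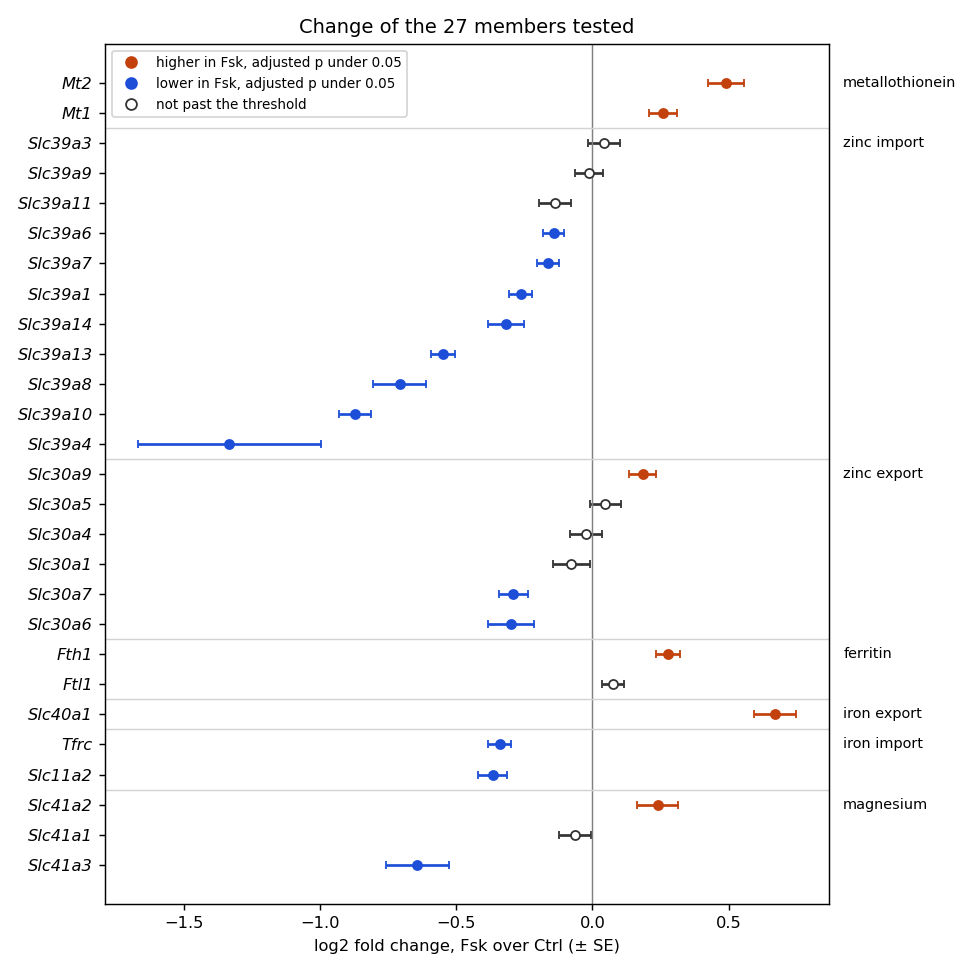
Log2 fold change of Fsk over Ctrl for the 27 genes tested, with its standard error, grouped by family. Filled points passed the adjusted p threshold of 0.05 (6 higher in Fsk, 13 lower) and open points did not. Slc40a1 lies farthest to the right and Slc39a4, a gene with few counts, farthest to the left.

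Metallothioneins are the main cytosolic buffer of zinc, and both genes were higher after forskolin. Mt2 (mm10, chromosome 8, 94172618 to 94173567) had 78.5, 69.8 and 68.4 CPM in Fsk libraries A, B and C, against 54.0, 48.0 and 52.2 CPM in Ctrl libraries A, B and C. Every Fsk library lay above every Ctrl library, and the log2 fold change was 0.49 (SE 0.0656, edgeR adjusted p = 6.2e-06). Mt1 (chromosome 8, 94179089 to 94180327) had 106, 104 and 101 CPM in Fsk libraries and 88.5, 81.7 and 89.6 CPM in Ctrl libraries. Its groups did not overlap either, and its log2 fold change was 0.26 (SE 0.0509, edgeR adjusted p = 0.000361). When library size was added as a covariate, Mt1 no longer passed (log2 fold change 0.18, adjusted p = 0.0737) and Mt2 still did (0.34, adjusted p = 0.0114). The counts of Mt2 are uncertain, since 69.5% of its exon bases overlap a gene on the opposite strand (Gm45774) and the labels do not state that strand was kept, whereas no 50-base stretch of Mt1 occurs in another gene. Mt3, the brain metallothionein, was at 0.696 CPM in Fsk libraries and 0.127 CPM in Ctrl libraries on average, too few to test, and Mt4 had 0 counts.

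Textbooks list Slc30a1, the plasma membrane zinc exporter gene, with the metallothionein genes as a target of MTF1. Windows at the RefSeq starts of these 3 genes are shown because MTF1 binds metal response elements in their promoters. Each covers 250 bases before the RefSeq start and 30 after it (RefSeq, GRCm38.p6, plus strand): chr8:94172368-94172647 for Mt2, chr8:94178839-94179118 for Mt1 and chr1:191906531-191906810 for Slc30a1. Capitals mark the core of the metal response element, TGCACNC or TGCGCNC on either strand, and no marked match overlaps another.
Mt2 promoter: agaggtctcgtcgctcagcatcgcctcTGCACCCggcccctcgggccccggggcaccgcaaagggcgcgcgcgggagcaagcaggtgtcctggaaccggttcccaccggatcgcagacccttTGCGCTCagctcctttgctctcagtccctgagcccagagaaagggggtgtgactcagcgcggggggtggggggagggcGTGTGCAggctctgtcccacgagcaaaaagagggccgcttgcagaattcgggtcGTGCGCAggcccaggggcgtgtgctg
Mt1 promoter: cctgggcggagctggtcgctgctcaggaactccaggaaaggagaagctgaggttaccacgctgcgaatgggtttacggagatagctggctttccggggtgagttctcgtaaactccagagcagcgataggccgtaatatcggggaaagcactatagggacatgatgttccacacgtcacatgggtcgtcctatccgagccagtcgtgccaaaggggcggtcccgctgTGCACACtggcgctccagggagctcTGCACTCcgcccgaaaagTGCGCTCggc
Slc30a1 promoter: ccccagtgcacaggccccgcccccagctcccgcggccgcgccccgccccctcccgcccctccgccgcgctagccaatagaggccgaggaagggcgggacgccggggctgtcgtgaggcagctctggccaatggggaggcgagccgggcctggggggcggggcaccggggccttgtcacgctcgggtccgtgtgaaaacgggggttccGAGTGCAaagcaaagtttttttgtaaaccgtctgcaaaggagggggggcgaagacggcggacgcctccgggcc
The core occurred at 4 places in the Mt2 window, at 3 in the Mt1 window and at 1 in the Slc30a1 window. Of the 35 genes 29 had an entry in the RefSeq promoter table, with 36 windows in all, and 18 of these 36 windows held the core, against 24.1% of 32851 windows of all genes. The window of Slc39a10 at the deposited start held 0 matches. The palindromic cyclic AMP response element of 8 bases occurred in 0 of the 36 windows and in 1.74% of all windows. Its core TGACG, on either strand, occurred in 15 of the 36 windows (41.7%), against 19.9% of all windows, and the Mt1 window held 1 at positions -77 to -73 from the start. A match describes letters in these windows and not a bound site. Positions are counted from the RefSeq start. The start used in these cells was not measured, so a window may miss part of a promoter. Slc30a1 itself had 39.3, 39.1 and 39.2 CPM in Fsk libraries and 39.2, 43.6 and 41.4 CPM in Ctrl libraries, which overlapped (log2 fold change -0.08, edgeR adjusted p = 0.362). The gene of the sensor, Mtf1, fell by 0.20 on the log2 scale, at 69.3 ± 2.71 CPM in Fsk libraries and 79.5 ± 1.598 CPM in Ctrl libraries (SD, n = 3 each; edgeR adjusted p = 0.00441).

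The 14 zinc importer genes of the Slc39 family were mostly lower. Of 11 tested, 8 fell, 0 rose and 3 did not pass (edgeR, adjusted p under 0.05), with a median log2 fold change of -0.26, where 25.1% of all genes tested fell and 24.8% rose. Their summed level was 1431 to 1457 CPM in Fsk libraries and 1701 to 1745 CPM in Ctrl libraries. In these libraries of many cells, fewer cells of a type and less RNA per cell cannot be told apart.

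Slc39a10 encodes ZIP10, a plasma membrane zinc importer. Its level (chromosome 1, 46807544 to 46853618) was 66.2, 56.2 and 60.2 CPM in Fsk libraries A, B and C, against 111, 109 and 114 CPM in Ctrl libraries A, B and C. The highest Fsk library was far below the lowest Ctrl library. The log2 fold change was -0.87 (SE 0.0576, edgeR adjusted p = 5.41e-10), the smallest adjusted p of the 27 genes. Slc39a13 encodes ZIP13, a transporter of intracellular vesicles whose loss in humans gives a form of Ehlers-Danlos syndrome, a connective tissue disorder. It had 132, 136 and 141 CPM in Fsk libraries and 197.6, 200.01 and 201 CPM in Ctrl libraries. These groups lay far apart relative to their spread (log2 fold change -0.55, SE 0.0427, edgeR adjusted p = 5.07e-09).

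ZIP8 and ZIP14, encoded by Slc39a8 and Slc39a14, carry manganese and iron as well as zinc, and ZIP14 is the main route for iron not bound to transferrin into hepatocytes. Slc39a8 (chromosome 3, 135825790 to 135888572) had 14.4, 13.3 and 15.3 CPM in Fsk libraries, against 24.8, 23.0 and 22.3 CPM in Ctrl libraries. All 3 Fsk libraries were lower than all 3 Ctrl libraries (log2 fold change -0.71, SE 0.0973, edgeR adjusted p = 8.24e-06). Slc39a14 (chromosome 14, 70303467 to 70351424) had 88.4, 71.3 and 78.6 CPM in Fsk libraries and 93.3, 99.8 and 103 CPM in Ctrl libraries. Fsk library A came close to Ctrl library A without crossing it (log2 fold change -0.32, SE 0.0658, edgeR adjusted p = 0.000592). Slc39a4 encodes ZIP4, the intestinal zinc importer, and was barely counted here. It had 7, 8.5 and 10 counts (0.638, 0.642 and 0.822 CPM) in Fsk libraries and 20, 30.5 and 21.5 counts (1.48, 2.04 and 1.69 CPM) in Ctrl libraries. Its log2 fold change was -1.33 (SE 0.335, edgeR adjusted p = 0.0029), and it did not pass when library size was added as a covariate (adjusted p = 0.0994).

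The most abundant importers had small changes. Slc39a6, which encodes ZIP6, a partner of ZIP10 at the plasma membrane, fell by 0.14 on the log2 scale, at 428 ± 8.65 CPM in Fsk libraries and 473 ± 6.14 CPM in Ctrl libraries (SD, n = 3 each; edgeR adjusted p = 0.00552). Slc39a7, which encodes ZIP7, the channel that releases zinc from the endoplasmic reticulum, fell by 0.16 (edgeR adjusted p = 0.0022). Only 17.8% of its 50-base stretches are found in no other gene, since an annotated gene on the same strand (Gm20427) covers 86.0% of its exon bases, so its counts are uncertain. Slc39a1, which encodes the widely expressed plasma membrane importer ZIP1, fell by 0.26, at 218 ± 5.50 CPM in Fsk libraries and 262 ± 8.52 CPM in Ctrl libraries (edgeR adjusted p = 4.32e-05). It shares stretches with a pseudogene (78.2% unique). Slc39a11 had 52.4 ± 2.38 CPM in Fsk libraries and 57.7 ± 0.495 CPM in Ctrl libraries (edgeR adjusted p = 0.0574), and without Fsk library C its adjusted p was 0.0202. Slc39a3 and Slc39a9 had log2 fold changes of 0.04 and -0.01 and overlapping groups. The importers Slc39a2, Slc39a5 and Slc39a12 had at most 9 counts in any library and were not tested.

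**Figure D2:**
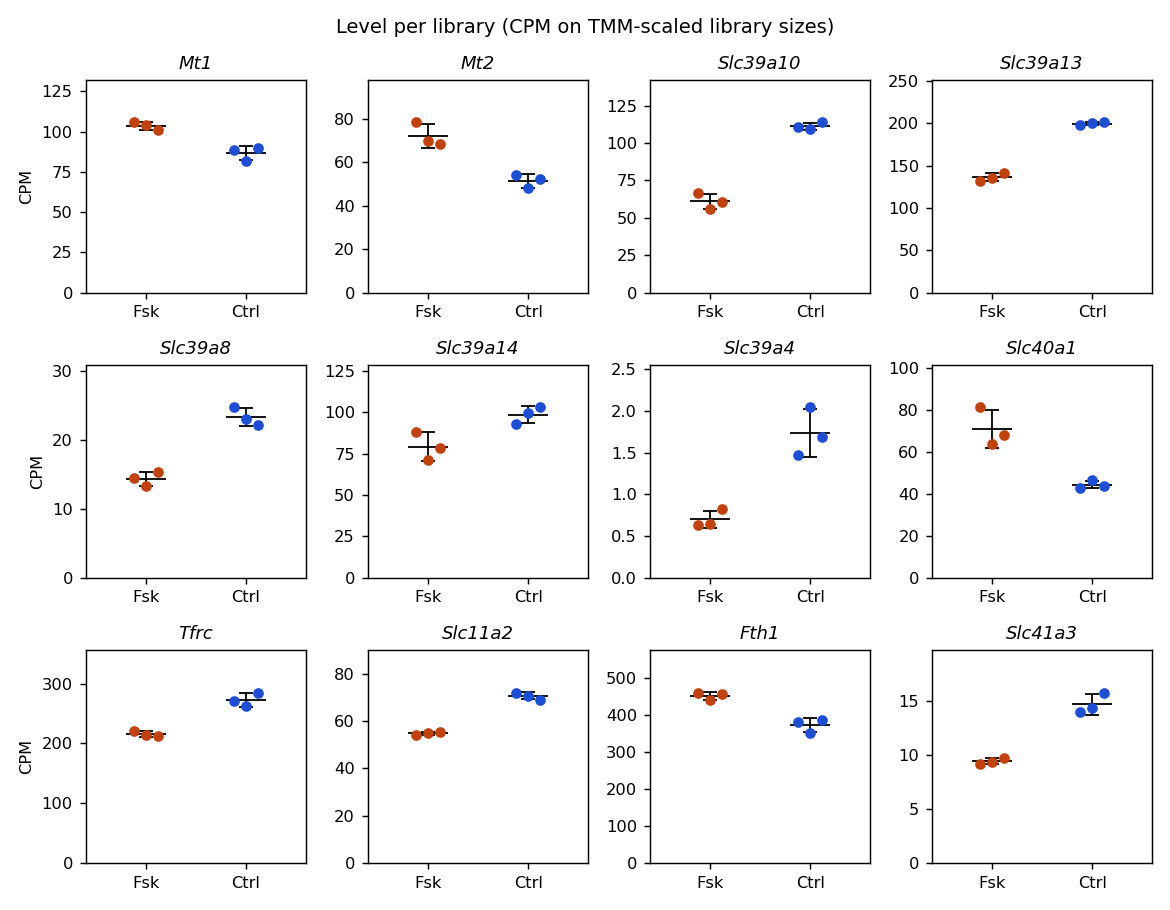
Level in each library, in CPM on linear axes that start at 0, for 12 of the genes given in full, all of them past the threshold (Ftl1 and Slc30a1, whose groups overlap, are not drawn). Points are libraries, Fsk left and Ctrl right, with the mean and SD of 3 libraries. The groups lie closest to each other in Slc39a14; 57.3% of all genes tested had no overlap.

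In the zinc exporter family Slc30 calls went in both directions. Of its 10 genes 6 were tested, and of these Slc30a9 rose, Slc30a6 and Slc30a7 fell and 3 did not pass. The median log2 fold change of the 6 was -0.05. Among all genes tested 24.8% rose and 25.1% fell. The summed level of the family was 467 to 502 CPM in Fsk libraries and 486 to 497 CPM in Ctrl libraries, which overlapped. Slc30a7 encodes ZnT7, which loads zinc into the Golgi apparatus. It fell by 0.29 on the log2 scale, at 84.1 ± 5.85 CPM in Fsk libraries and 103 ± 3.35 CPM in Ctrl libraries (SD, n = 3 each; edgeR adjusted p = 0.000245), with 81.0% of its stretches unique. Slc30a5 and Slc30a6 encode ZnT5 and ZnT6, which work as a pair in the early secretory pathway. Slc30a6 fell by 0.30 (27.9 ± 3.001 CPM in Fsk libraries and 34.3 ± 1.64 CPM in Ctrl libraries, edgeR adjusted p = 0.00681). It did not pass with the library size covariate (adjusted p = 0.227). Slc30a5 had 89.5 ± 5.70 CPM in Fsk libraries and 86.5 ± 3.86 CPM in Ctrl libraries (adjusted p = 0.502). Slc30a9, a mitochondrial zinc exporter gene, rose by 0.18 (111 ± 1.77 CPM in Fsk libraries and 97.3 ± 4.15 CPM in Ctrl libraries, edgeR adjusted p = 0.0039), and did not pass with that covariate either (adjusted p = 0.0743). Slc30a4, which encodes the vesicular exporter ZnT4, had 128 ± 12.2 CPM in Fsk libraries and 130 ± 6.39 CPM in Ctrl libraries. Slc30a2, Slc30a3 and Slc30a10 had at most 3 counts in any library. Slc30a8, the exporter gene of pancreatic beta cells, had 0 counts in all 6 libraries, which allows up to 0.201 to 0.273 CPM by counting error alone.

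Of the iron genes, the exporter rose, both tested importers fell and 1 of 2 ferritin genes rose, where 24.8% of all genes tested rose and 25.1% fell. Slc40a1 encodes ferroportin, the iron exporter. It (chromosome 1, 45908070 to 45925594) had 81.0, 63.8 and 67.9 CPM in Fsk libraries A, B and C, against 42.8, 46.5 and 43.9 CPM in Ctrl libraries A, B and C. Each Fsk library exceeded each Ctrl library, with library A the highest. The log2 fold change was 0.67 (SE 0.0769, edgeR adjusted p = 8.98e-07). Macrophages also express ferroportin, and the macrophage markers Csf1r and Cd68 rose as well (18.3 and 15.8 CPM in Fsk libraries, 13.2 and 11.2 CPM in Ctrl libraries). The macrophage gene Lyz2 fell to 4.22 CPM in Fsk libraries, against 10.9 CPM in Ctrl libraries. Of the other macrophage markers, Adgre1, Clec4f, C1qa, C1qb and C1qc averaged under 0.2 CPM in both groups and Marco had 0 counts, and the part of macrophages in the value of Slc40a1 was not tested. Slc11a1, the macrophage iron transporter gene NRAMP1, had 4.5, 6 and 6.5 counts in Fsk libraries and 4, 5 and 8 counts in Ctrl libraries.

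Both tested iron importer genes were lower. Tfrc (chromosome 16, 32608896 to 32632794), the receptor that takes up transferrin-bound iron, had 221, 214 and 212 CPM in Fsk libraries and 272, 263 and 285 CPM in Ctrl libraries. The groups were clearly apart (log2 fold change -0.34, SE 0.0429, edgeR adjusted p = 2.96e-06). Slc11a2 (chromosome 15, 100392658 to 100423055) encodes DMT1, which moves iron out of the endosome. It had 54.0, 55.2 and 55.3 CPM in Fsk libraries and 72.1, 70.8 and 69.1 CPM in Ctrl libraries, again without overlap (log2 fold change -0.37, SE 0.0540, edgeR adjusted p = 1.82e-05). The table counts 1 transcript per gene, so the isoforms of Slc11a2 with and without an iron-responsive element were not separated.

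Ferritin is a shell of heavy chains, which oxidise iron, and light chains. Fth1 (chromosome 19, 9982646 to 9985111), the heavy chain gene, had 461, 440 and 456 CPM in Fsk libraries and 381, 352 and 387 CPM in Ctrl libraries. All Fsk libraries were higher, and the log2 fold change was 0.28 (SE 0.0441, edgeR adjusted p = 3.98e-05). Ftl1 (chromosome 7, 45457944 to 45459886), the light chain gene, had 508, 485 and 513 CPM in Fsk libraries and 487, 460 and 481 CPM in Ctrl libraries. These groups overlapped (log2 fold change 0.08, SE 0.0416, edgeR adjusted p = 0.139), and with library size alone as scaling the adjusted p was 0.0131. Only 9.36% of the stretches of Ftl1 are unique, with 17 other annotated genes sharing some, most of all the pseudogene Ftl1-ps1, so its counts are uncertain, against 93.4% unique for Fth1. Both were among the most densely counted genes, at 5.66 counts per base of exon for Fth1 and 6.54 for Ftl1, where the highest of all genes tested was 7.09. The 96 genes with over 3 counts per base had a median log2 fold change of 0.07. The part of such dense counting in the values of ferritin was not tested.

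The sites below are shown because iron regulatory proteins bind such hairpins when iron is low: at the start of a messenger they block translation, as in ferritin and ferroportin, and behind the coding region they protect it from decay, as in Tfrc. For each of the 35 genes 1 transcript of GENCODE M21 (GRCm38) was searched for a loop CAGTGN, with any last base but G, flanked by 5 paired bases on each side (G with T allowed) and an unpaired C before them. Each line gives 30 bases, written as DNA, with the loop in capitals. Fth1 (chr19:9982732-9982761, plus strand), Ftl1 (chr7:45459778-45459807, minus strand) and Slc40a1 (chr1:45925464-45925493, minus strand) had 1 site each in the 5′ UTR. Tfrc had 4 in the 3′ UTR, all on the plus strand (chr16:32631219-32631248, chr16:32631598-32631627, chr16:32631663-32631692 and chr16:32631710-32631739).
Fth1 site: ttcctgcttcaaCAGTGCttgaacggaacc
Ftl1 site: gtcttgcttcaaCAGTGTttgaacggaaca
Slc40a1 site: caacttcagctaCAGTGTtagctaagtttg
Tfrc site 1: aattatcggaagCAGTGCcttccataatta
Tfrc site 2: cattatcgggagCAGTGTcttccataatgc
Tfrc site 3: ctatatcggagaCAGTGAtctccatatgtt
Tfrc site 4: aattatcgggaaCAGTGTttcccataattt
Only these 4 of the 35 transcripts matched this strict pattern, while 0.595% of all annotated genes had a match in any of their transcripts. An element with an unpaired base among the 5 pairs, or in an isoform not searched, would not be found. The missing match of Slc11a2 therefore does not show that its transcripts lack an element. The loop was CAGTGC in Fth1 and Tfrc site 1, CAGTGT in Ftl1, Slc40a1 and Tfrc sites 2 and 4, and CAGTGA in Tfrc site 3. Of the genes with a site at the start of the messenger, Slc40a1 and Fth1 were higher after forskolin and Ftl1 did not pass, and Tfrc, with its sites behind the coding region, was lower. RNA level alone was measured here, so translation was not.

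**Figure D3:**
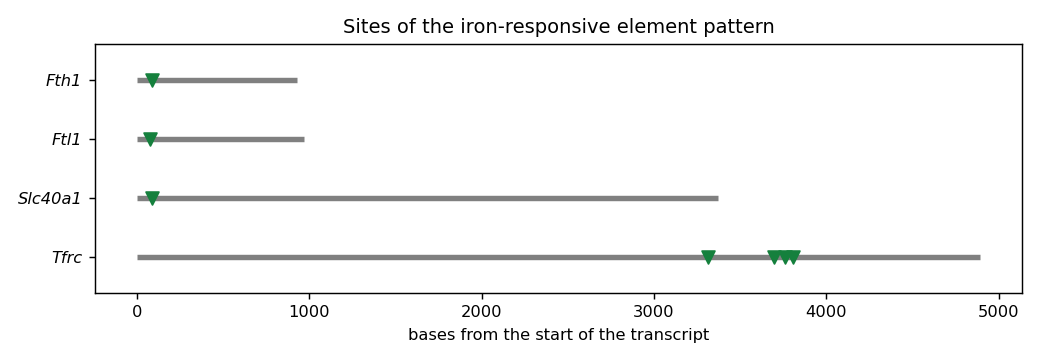
Position of the 7 sites of the iron-responsive element pattern (triangles) along the transcripts of Fth1, Ftl1, Slc40a1 and Tfrc, in bases from the start of each transcript, drawn to scale. The single sites lie within the first 119 bases, and the 4 sites of Tfrc between bases 3315 and 3835 of 4890.

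Among the other iron genes, chosen by function, Heph and Steap4 had the largest rises of those named. Heph encodes hephaestin, a ferroxidase that works with ferroportin, and rose by 1.03 on the log2 scale, to 88.2 ± 2.28 CPM in Fsk libraries, against 43.2 ± 1.53 CPM in Ctrl libraries (SD, n = 3 each; edgeR adjusted p = 3.22e-11). Cp, the gene of the related ferroxidase ceruloplasmin, fell by 0.47 (86.8 ± 7.17 CPM in Fsk libraries and 120 ± 7.47 CPM in Ctrl libraries, adjusted p = 3.99e-06). In the list of iron export, chaperones and ferritin turnover 4 of 8 tested genes rose and 3 fell (median log2 fold change 0.16), where 24.8% of all genes tested rose and 25.1% fell. The iron chaperone gene Pcbp2 rose by 0.18, with 42.1% of its stretches unique, and the haem and xenobiotic exporter gene Abcg2 fell by 0.23. Ncoa4, the receptor that takes ferritin to the lysosome, was at 55.9 CPM in Fsk libraries and 51.0 CPM in Ctrl libraries (edgeR adjusted p = 0.0884).

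In the list of iron uptake and reduction 4 of 7 tested genes rose and 2 fell (median 0.17), against the same shares of all genes tested. Steap4, a metalloreductase gene, rose by 1.35 to 87.3 ± 16.4 CPM in Fsk libraries, against 34.2 ± 1.95 CPM in Ctrl libraries (SD, n = 3 each; edgeR adjusted p = 2.7e-09). Steap3, the reductase gene of the transferrin cycle, fell by 0.97, at 4.70 CPM in Fsk libraries and 9.23 CPM in Ctrl libraries (adjusted p = 2.94e-05). Slc48a1, which encodes a haem transporter of the endosome, rose by 0.42 (276 ± 4.62 CPM in Fsk libraries and 207 ± 5.58 CPM in Ctrl libraries, adjusted p = 1.18e-07). Trf, the transferrin gene, rose by 0.32 (219.8 ± 11.4 CPM in Fsk libraries and 176 ± 6.88 CPM in Ctrl libraries, adjusted p = 1.77e-05), with 20.2% of its stretches unique. Ltf, the lactoferrin gene, fell by 1.56, at 2.69 CPM in Fsk libraries and 8.08 CPM in Ctrl libraries (adjusted p = 9.21e-06).

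Genes of iron sensing had 5 of 8 tested members higher and 1 lower (median 0.24; 24.8% and 25.1% of all genes tested), and 3 higher with the library size covariate. Fbxl5, the iron-sensing subunit of the ubiquitin ligase that removes iron regulatory protein 2, rose by 0.46 (55.8 ± 3.24 CPM in Fsk libraries and 40.7 ± 2.99 CPM in Ctrl libraries, edgeR adjusted p = 2.47e-05). Aco1, which encodes iron regulatory protein 1, fell by 0.19 (adjusted p = 0.00105), and Ireb2, which encodes protein 2, was at 126 CPM in Fsk libraries and 122 CPM in Ctrl libraries (adjusted p = 0.449). Bmp2 and Bmp6, ligand genes that raise hepcidin in hepatocytes, rose by 0.46 and 0.62. Hamp, the hepcidin gene itself, was at 0.665 CPM in Fsk libraries and 0.171 CPM in Ctrl libraries, too few counts to test.

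Haem genes had 4 of 12 higher and 1 lower (median 0.12), where 24.8% of all genes tested were higher and 25.1% lower. The number lower was 2 without Fsk library A, without Fsk library C and with the library size covariate. Blvrb, a biliverdin reductase gene, rose by 0.53 (101 ± 1.07 CPM in Fsk libraries and 69.6 ± 2.46 CPM in Ctrl libraries, edgeR adjusted p = 6.48e-08). Alas1, the rate-limiting enzyme gene of haem synthesis outside red cells, rose by 0.22, Fech, the gene of the enzyme that inserts the iron, rose by 0.22, and Cpox fell by 0.24. Hmox1, the haem oxygenase gene that responds to oxidative stress, was at 506 CPM in Fsk libraries and 526 CPM in Ctrl libraries (adjusted p = 0.391). Mitochondrial iron and iron-sulfur genes had 6 of 12 higher and 1 lower (median 0.19), against 24.8% and 25.1% of all genes tested. With the library size covariate 2 were higher. The cysteine desulfurase gene Nfs1 rose by 0.30, the mitochondrial iron importer gene Slc25a28 by 0.46 and the scaffold gene Iscu by 0.24. Of the stretches of Nfs1 84.6% are unique, and of those of Iscu 76.5%.

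Magnesium transporters of the Slc41 family moved in both directions. Slc41a3 (chromosome 6, 90604880 to 90646412), which encodes a mitochondrial magnesium exporter, had 9.20, 9.37 and 9.74 CPM in Fsk libraries and 13.99, 14.4 and 15.8 CPM in Ctrl libraries. The Fsk libraries lay close together and well below the Ctrl libraries (log2 fold change -0.64, SE 0.115, edgeR adjusted p = 0.000149). Slc41a2 rose by 0.24 (36.0 ± 1.49 CPM in Fsk libraries and 30.4 ± 1.95 CPM in Ctrl libraries, SD, n = 3 each; adjusted p = 0.0134). That call was lost without Ctrl library B (adjusted p = 0.0785) and with the library size covariate (adjusted p = 0.421). Slc41a1, the plasma membrane exporter gene, was at 64.3 ± 4.32 CPM in Fsk libraries and 67.2 ± 1.53 CPM in Ctrl libraries (adjusted p = 0.379).

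Of 18 other magnesium transporter and regulator genes tested, 12 fell and 1 rose, with a median log2 fold change of -0.25, where 25.1% of all genes tested fell. The number that rose was 2 without Fsk library A, without Ctrl library A, without Ctrl library B and with no filter on low counts. Nipal1, a NIPA-family magnesium transporter gene, fell by 1.34 to 20.2 ± 3.61 CPM in Fsk libraries, against 50.8 ± 2.77 CPM in Ctrl libraries (SD, n = 3 each; edgeR adjusted p = 2.55e-09). Mmgt1 fell by 0.53 (85.4 ± 2.04 CPM in Fsk libraries and 123 ± 4.96 CPM in Ctrl libraries, adjusted p = 5.05e-08), and Magt1 by 0.35 (122 ± 1.96 CPM in Fsk libraries and 156 ± 6.76 CPM in Ctrl libraries, adjusted p = 4.19e-06). Ptp4a1, a phosphatase gene whose protein binds the CNNM magnesium transporters, fell by 0.55, but only 5.07% of its stretches are unique. The gene that rose was Ptp4a2, another phosphatase of that kind (0.29, adjusted p = 1.49e-05). With the library size covariate 7 genes of the list were lower.

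**Figure D4:**
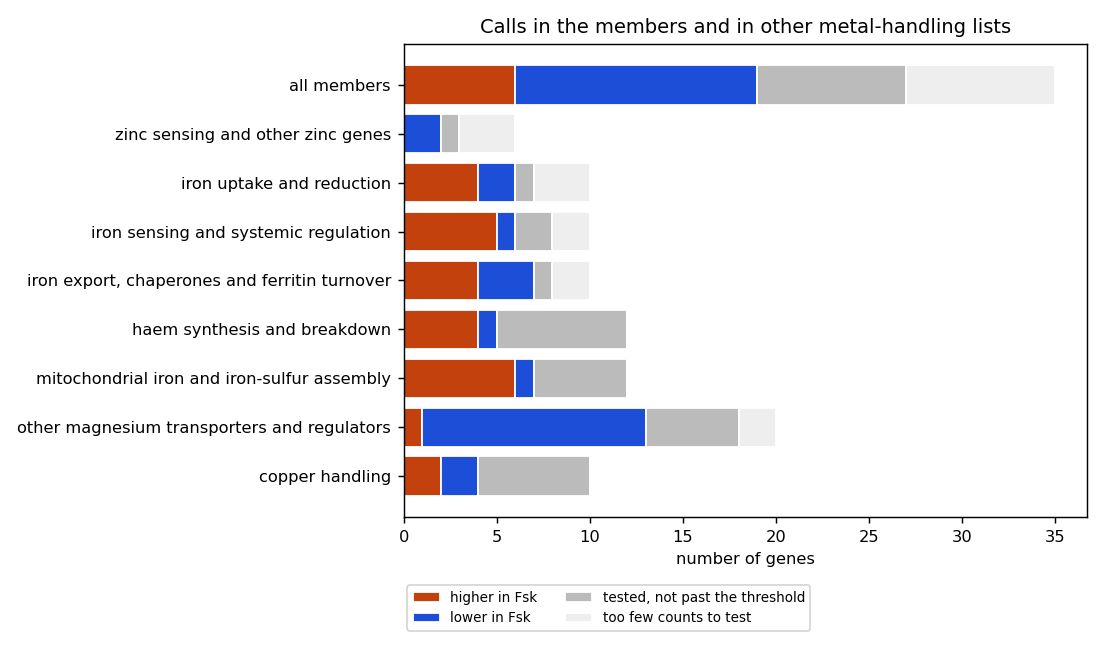
Number of genes called higher or lower in Fsk, tested without a call, or with too few counts to test, for the 35 genes and for 8 lists of other metal-handling genes chosen by function. The magnesium list has 12 lower and 1 higher. The lists of iron uptake, iron sensing, iron export, haem and mitochondrial iron have more higher than lower. Of all genes tested 24.8% were higher and 25.1% lower.

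Levels per length, which put genes of different length on the same scale, were computed as TPM from the deposited counts and exon lengths. TPM is the usual length-scaled measure. The counts of Ftl1, Slc39a7 and Mt2 are uncertain (9.36%, 17.8% and 54.5% of stretches unique). Ftl1 and Fth1 were also counted at 6.54 and 5.66 per base of exon, near the highest of all genes tested, 7.09. The part of shared stretches and dense counting in the ranks below was not tested. Ferritin had by far the highest TPM. Ftl1 averaged 1448 ± 28.8 TPM in Fsk libraries and 1365 ± 27.7 TPM in Ctrl libraries (SD, n = 3 each). Fth1 averaged 1345 ± 24.2 TPM in Fsk libraries and 1101 ± 44.5 TPM in Ctrl libraries. Mt1 followed at 537 ± 17.2 TPM in Fsk libraries and 446 ± 17.5 TPM in Ctrl libraries. Slc39a7 and Mt2 did not differ beyond their spread in Fsk libraries (371 ± 6.65 and 365 ± 28.0 TPM), while in Ctrl libraries Slc39a7 was at 413 ± 7.54 TPM and Mt2 at 258 ± 13.04 TPM. Slc39a6 and Slc39a1 were at 308 and 259 TPM in Fsk libraries, below Mt2, and at 338 and 309 TPM in Ctrl libraries, above Mt2. Among zinc exporters the highest level per length was that of Slc30a9, at 90.8 ± 0.528 TPM in Fsk libraries and 79.3 ± 3.39 TPM in Ctrl libraries. Slc40a1 stood at 58.5 ± 7.28 TPM in Fsk libraries and 36.4 ± 1.92 TPM in Ctrl libraries. Tfrc was at 123 ± 3.01 TPM in Fsk libraries and 154 ± 5.11 TPM in Ctrl libraries. Slc41a3 and Slc39a8 did not differ beyond their spread in either group, at 11.7 ± 0.278 and 11.3 ± 0.684 TPM in Fsk libraries and 18.15 ± 1.12 and 18.3 ± 0.990 TPM in Ctrl libraries. Slc39a4 was the lowest of the genes tested, at 0.880 TPM in Fsk libraries and 2.17 TPM in Ctrl libraries.

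**Figure D5:**
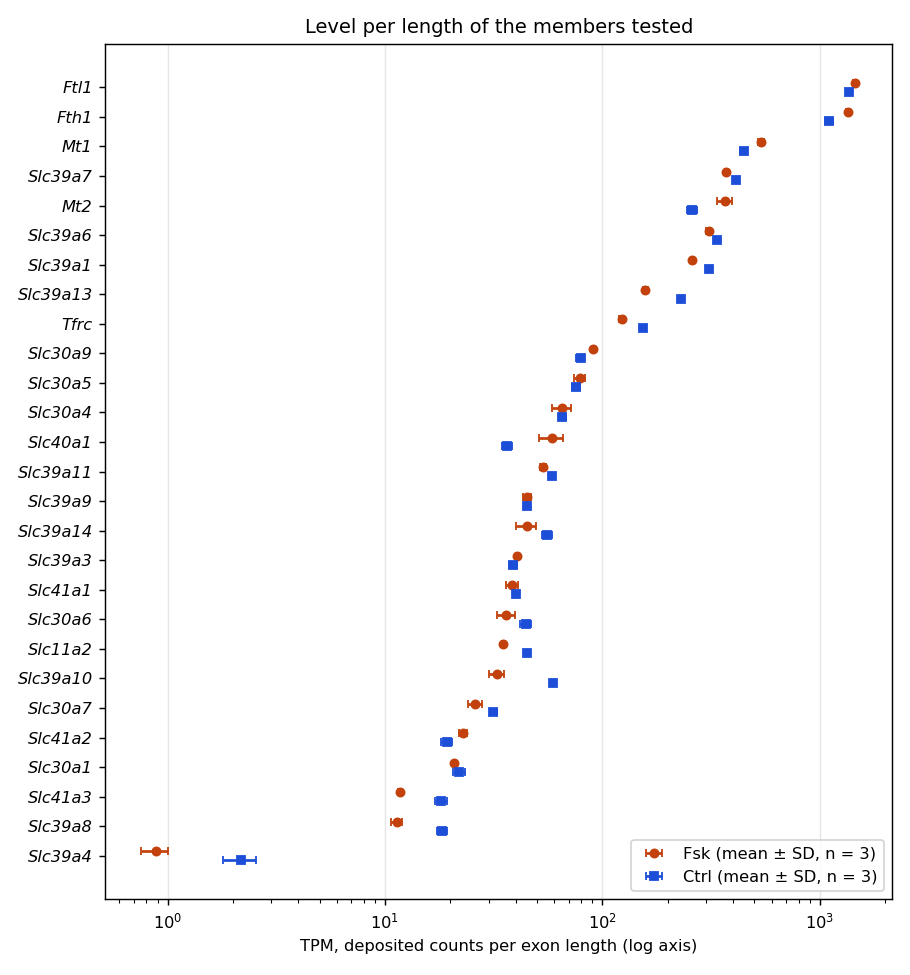
Level per length (TPM, log axis) of the 27 genes tested, as mean and SD of 3 Fsk libraries (circles) and 3 Ctrl libraries (squares), ordered by the Fsk mean. Ftl1 and Fth1 exceed 1000 TPM in both groups, and Slc39a4 lies near 1 TPM.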

How the data were processed

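Polyadenylated RNA of 6 libraries, 3 per group, was sequenced by the authors (library kit NEBNext Ultra RNA, as the labels' protocols state). The table that the authors deposited holds estimated counts (expected counts) that were not normalized, for 1 RefSeq transcript per symbol, with its exon length. The submitters' processing notes name STAR, HOMER and mm10, and the sources used here give neither versions nor settings. All deposited values are multiples of 0.5 (31.8% are not whole) and were rounded for tests.

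The filter filterByExpr (count of at least 10, total of at least 15) kept 13357 genes with 99.9% of the counts. Libraries were scaled by TMM, and Fsk was tested against Ctrl with the quasi-likelihood test of edgeR 4.0.16 (R 4.3.3), group being the only term, with two-sided p-values adjusted by the Benjamini-Hochberg method over all genes tested. CPM use TMM-scaled library sizes, and the SE comes from the F statistic. Alternatives were DESeq2 1.42.0, library size alone, no filter, each library left out, the replicate letter as a block, log2 library size as a covariate and a test against a 1.5-fold change. Shared stretches of 50 bases and overlapping exons come from GENCODE M21.

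The genes, lists and rules were chosen with earlier results of these data known. Values of every library are given for genes past the threshold that changed at least 1.5-fold and for 10 genes set by name. Of each list, up to 4 genes past the threshold with the smallest adjusted p were named, except 1 that is not reported here. Further genes named, among them Steap3, Hmox1, Ireb2, Ncoa4, Hamp, Mt3, Ptp4a2 and Lypd1, and the library values of Slc39a13 and Slc30a1, were chosen after their values were seen. Intervals and limits cover counting error only. The total count of a library, 10890193 to 15090262.5, limits precision for the genes with few counts.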

Additional observations from a re-analysis of the deposited data

How the results depend on the processing

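The summed counts of calls (the 27 genes, the 8 lists together and all genes) stayed within 1.5 times under DESeq2, library size alone and no filter. Without the filter, single lists moved for higher calls in the magnesium list (2 in place of 1) and the zinc sensing list (1 in place of 0). With each library left out in turn, 5 to 6 of the 27 genes were higher and 13 to 14 lower, 23 to 30 genes of the 8 lists were higher and 20 to 24 lower, and 2773 to 3369 of all genes were higher and 2858 to 3431 lower. With log2 library size as a covariate 1998 of all genes were higher, in place of 3319, as were 3 of the 27 in place of 6 and 17 of the lists in place of 26; this term takes a degree of freedom and moves with the groups. Tested against a 1.5-fold change, 422 of all genes were higher and 578 lower, 0 and 1 of the 27, and 2 and 5 of the lists. Besides this stricter test, calls of the 27 genes were lost only for Mt1, Slc41a2, Slc30a6, Slc30a9 and Slc39a4 with the covariate, and for Slc41a2 without Ctrl library B, and were gained for Ftl1 with library size alone and for Slc39a11 without Fsk library C. Reversals concern 3 genes that did not pass under any setting run. The log2 fold change of Slc30a4, -0.02, was 0.0201 with library size alone and -0.0896 to 0.0421 with each library left out, above 0 without Fsk library C or Ctrl library C. That of Slc30a5, 0.05, was -0.067 with the covariate. That of Slc39a9, -0.01, was 0.0319 with library size alone, 0.0719 with the covariate and -0.0335 to 0.0247 with each library left out, above 0 without Fsk library A or Ctrl library B. The cause was not tested.

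The labels do not say whether the replicate letters pair the libraries. Deviations of libraries with the same letter from their group means correlated at 0.0291, 0.0203 and 0.0377, and each library correlated best with its own letter. With the replicate letter as a block, the replicate block, 6 of the 27 genes were higher and 13 lower, 27 and 23 genes of the lists, and 3303 and 3372 of all genes.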

Other observations

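Copper handling genes, a list also chosen by function, had 2 of 10 tested genes higher and 2 lower, with a median log2 fold change of 0.04, where 49.9% of all genes tested were called in either direction, and 1 higher with library size as a covariate. Atp7a, the copper pump gene that supplies secreted enzymes such as lysyl oxidase, fell by 0.71 on the log2 scale, at 87.6 ± 3.35 CPM in Fsk libraries and 144 ± 1.59 CPM in Ctrl libraries (SD, n = 3 each; edgeR adjusted p = 4.49e-10). Its relative Atp7b, the copper exporter of hepatocytes, rose by 0.90, at 5.93 ± 1.01 CPM in Fsk libraries and 3.15 ± 0.608 CPM in Ctrl libraries (adjusted p = 0.00124). Slc31a1, which encodes the copper importer CTR1, fell by 0.28, at 120 ± 1.603 CPM in Fsk libraries and 145 ± 4.98 CPM in Ctrl libraries (adjusted p = 5.5e-05). Cox17, a copper chaperone gene of mitochondria, rose by 0.32 (adjusted p = 0.00174), with 47.3% of its stretches unique.

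Of 6 genes of zinc sensing and other zinc handling 3 were tested. Of these 0 rose and 2, Gpr39 and Mtf1, fell (median log2 fold change -0.20), where 24.8% of all genes tested rose and 25.1% fell. The number that rose was 1 without Fsk library A, without Ctrl library C and with no filter on low counts, and the number that fell was 1 with library size as a covariate. Gpr39, which encodes a zinc-sensing receptor, fell by 1.16 on the log2 scale, to 145 ± 8.92 CPM in Fsk libraries, against 324 ± 5.81 CPM in Ctrl libraries (SD, n = 3 each; edgeR adjusted p = 5.44e-13). Of its exon bases 44.7% overlap Lypd1 on the opposite strand, and Lypd1 fell by 1.09, at 83.0 ± 5.54 CPM in Fsk libraries and 176 ± 3.09 CPM in Ctrl libraries (adjusted p = 4.11e-12). As the labels do not state that strand was kept, the changes of Gpr39 and Lypd1 cannot be told apart.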
